A study of Ovis aries with 15 samples.

Results

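The chromatin and histone modifying genes of sheep skeletal muscle were followed through 3 fetal and 2 postnatal stages. Members were taken by name alone, from probe sets whose only annotated gene symbol was that of a histone deacetylase (HDAC), a lysine acetyltransferase (KAT), an inhibitor of growth reader (ING), a lysine methyltransferase of the KMT or SETD series, a lysine demethylase (KDM), a DNA methyltransferase (DNMT), a SMARC, ARID or CHD remodelling protein, a chromobox protein (CBX), a bromodomain protein (BRD) or a Polycomb repressive complex 2 subunit. This gave 64 genes of the 9155 with a symbol of their own on the array, and the brightest probe set of each gene, by its mean log2 signal, stood for it. Of these, 60 reached a signal of 50 on at least 3 arrays and were tested; BRD2, BRD9, ARID3B and ING3 did not. HDAC4, HDAC9, SUZ12 and the TET dioxygenases were not analysed here. The expression values were signals of a bovine Affymetrix array hybridised with ovine RNA from longissimus dorsi (LD), a muscle of the back. Each of the 5 stages had 3 animals, with 1 array per animal and different animals at every stage. The untreated Dorset/Suffolk/Rambouillet cross-bred sheep were fetuses at 80, 100 and 120 days (d) of gestation, lambs just after birth (150 d counted from conception) and older lambs (230 d). By the methods of the study, all animals were male except for 1 female among the 3 at 100 d and 1 among the 3 at 120 d, and the labels do not say which. The label descriptions call every stage fetal, and the source names were followed for the lambs.

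DNA in the nucleus is wound around histones, and enzymes that add or remove acetyl and methyl groups on histone tails alter how tightly genes are packed and which proteins bind them. Polycomb complexes and DNA methyltransferases place repressive marks, bromodomain and chromodomain proteins read marks, and ATP-driven remodellers of the SWI/SNF, ISWI and CHD families slide or evict nucleosomes. In skeletal muscle, class II deacetylases are known to restrain MEF2 transcription factors, EZH2 to hold muscle genes silent in dividing myoblasts, and SWI/SNF complexes to open those genes as myoblasts become fibres.

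Arrays of the same stage correlated at 0.893 to 0.938 over all probe sets, and array medians were 51.4 to 69.4. The mean log2 signal of the hybridisation controls was 10.16, 9.98 and 9.95 at 80, 100 and 120 d. It was 10.60 and 10.85 at 150 and 230 d, and every postnatal array lay above every fetal one. This difference between arrays cannot be told apart from stage. The labelled tissue was borne out by its markers, since the summed signal of 7 muscle fibre genes had a mean of 63363 at 80 d and 97444 at 120 d, and of 175130 in newborn and 238310 in older lambs, and all 7 were called higher after birth. Markers of other cell populations also differed between stages. The sum over 11 proliferation genes, 9 of which passed the filter, was 4112 to 4495 at 80 d, 2045 to 2264 at 120 d, 1186 to 2683 at 150 d and 1145 to 1298 at 230 d. Endothelial markers (6 genes) summed to 5482 to 6474 at 120 d and to 1958 to 3639 at 150 d, and erythroid markers (7 genes) to 16457 to 17010 and 2447 to 4246 at the same stages. Schwann and nerve markers (3 genes) went from 710 to 818 at 120 d to 287 to 352 at 150 d, and adipocyte markers (5 genes) from 403 to 741 to 912 to 1600, while leukocyte, fibroblast and myoblast sums overlapped between these stages. The ratio of 3' to 5' actin signal, a measure of RNA integrity, had means of 1.89, 1.53, 1.03, 0.910 and 0.995 from the youngest stage to the oldest. For GAPDH the same ratio was 0.99 to 1.22 at 80 d and 1.12 to 1.34 at 150 d, without such a fall. In whole muscle, fewer cells of a type and less RNA per cell cannot be told apart, and the part of these shifts in the differences below was not tested. The probes were designed for bovine transcripts and probe sets differ in their response, so signals of different genes are not comparable as amounts.

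Differences between neighbouring stages were tested with limma over all 15998 probe sets kept, and were called at a Benjamini-Hochberg adjusted p under 0.01. The p-values measure the spread between animals, and 3 arrays per stage limit their precision. Over the fetal intervals no member was called. From 80 to 100 d this stood against 0.125% of all probe sets, and 2 of the 60 members, compared with 8.24% of all probe sets, had an unadjusted p under 0.05 (HDAC7 with a log2 difference of 0.43 and EED with -0.79). From 100 to 120 d it stood against 0.0563% of all probe sets, and 8 of 60 members, compared with 7.44% of all probe sets, had an unadjusted p under 0.05, among them EZH2 (-0.73), SMARCA4 (-0.60) and SMARCAD1 (-0.53). Calling each interval by nested F tests raised the counts to 3 and 8 members. The share of all probe sets called by nested F was not counted, so whether these counts are particular to the members cannot be read.

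Between 120 and 150 d, the interval that spans birth, 12 of the 60 members were called, 11 lower and 1 higher, against 11.2% of all probe sets called in either direction (6.77% lower, 4.41% higher). HDAC1 rose. The genes that fell were the remodellers SMARCA1, SMARCAD1, SMARCE1, CHD1, CHD1L and CHD6, the readers ING4 and ARID4B, the Polycomb enzyme EZH1, the deacetylase HDAC7 and the SET-domain gene SETD5. The log2 difference was below zero for 48 of 60 members (80.0%), compared with 58.0% of all probe sets, and the median was -0.53 compared with -0.15. In 29 members all 3 signals at 150 d lay under all 3 at 120 d, and in 6 they lay above, compared with 22.9% and 14.3% of all probe sets. With array medians set equal the split was 7 lower and 2 higher, against 4.11% lower and 4.89% higher of all probe sets, whose median was -0.03. Scaling to the hybridisation controls moved that median to -0.81 and gave 33 lower and 0 higher, with 24.2% and 1.01% of all probe sets. Both of these scalings shift all probe sets of an array alike and so cannot alter the distance of 0.37 between the members' median and that of all probe sets. With quantile normalization, which can alter it, the distance was 0.45. There 7 members were called lower and 1 higher, against 4.96% and 4.38% of all probe sets. Without replicate 3 of 120 d, or without replicate 2 of 150 d, 5 members were called lower. The falls of ARID4B, CHD1L, SETD5 and SMARCE1 were not called with medians set equal (adjusted p from limma of 0.0361, 0.0132, 0.0145 and 0.0101), nor with quantile normalization.

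Relative to all 15 arrays, 150 d was the stage of the lowest mean for 35 of the 60 members (58.3%), compared with 28.2% of all probe sets, and 230 d was the highest for 7 (11.7%), compared with 28.2%. The 80 d mean was the highest for 22 members (36.7% compared with 25.3%) and the 120 d mean for 14 (23.3% compared with 12.1%). The share with the lowest mean at 150 d was 43.3% (all probe sets 19.2%) with medians set equal and 56.7% (22.3%) with quantile normalization. When scaled to the hybridisation controls it was 41.7% (28.1%), and the leading stage changed: 34 members (56.7%, all probe sets 52.4%) were then lowest at 230 d. Of the 60 members, 24 were then highest at 120 d, 18 at 100 d and 15 at 80 d. Of all probe sets, 33.5%, 34% and 17.3% were highest at these stages.

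**Figure D1:**
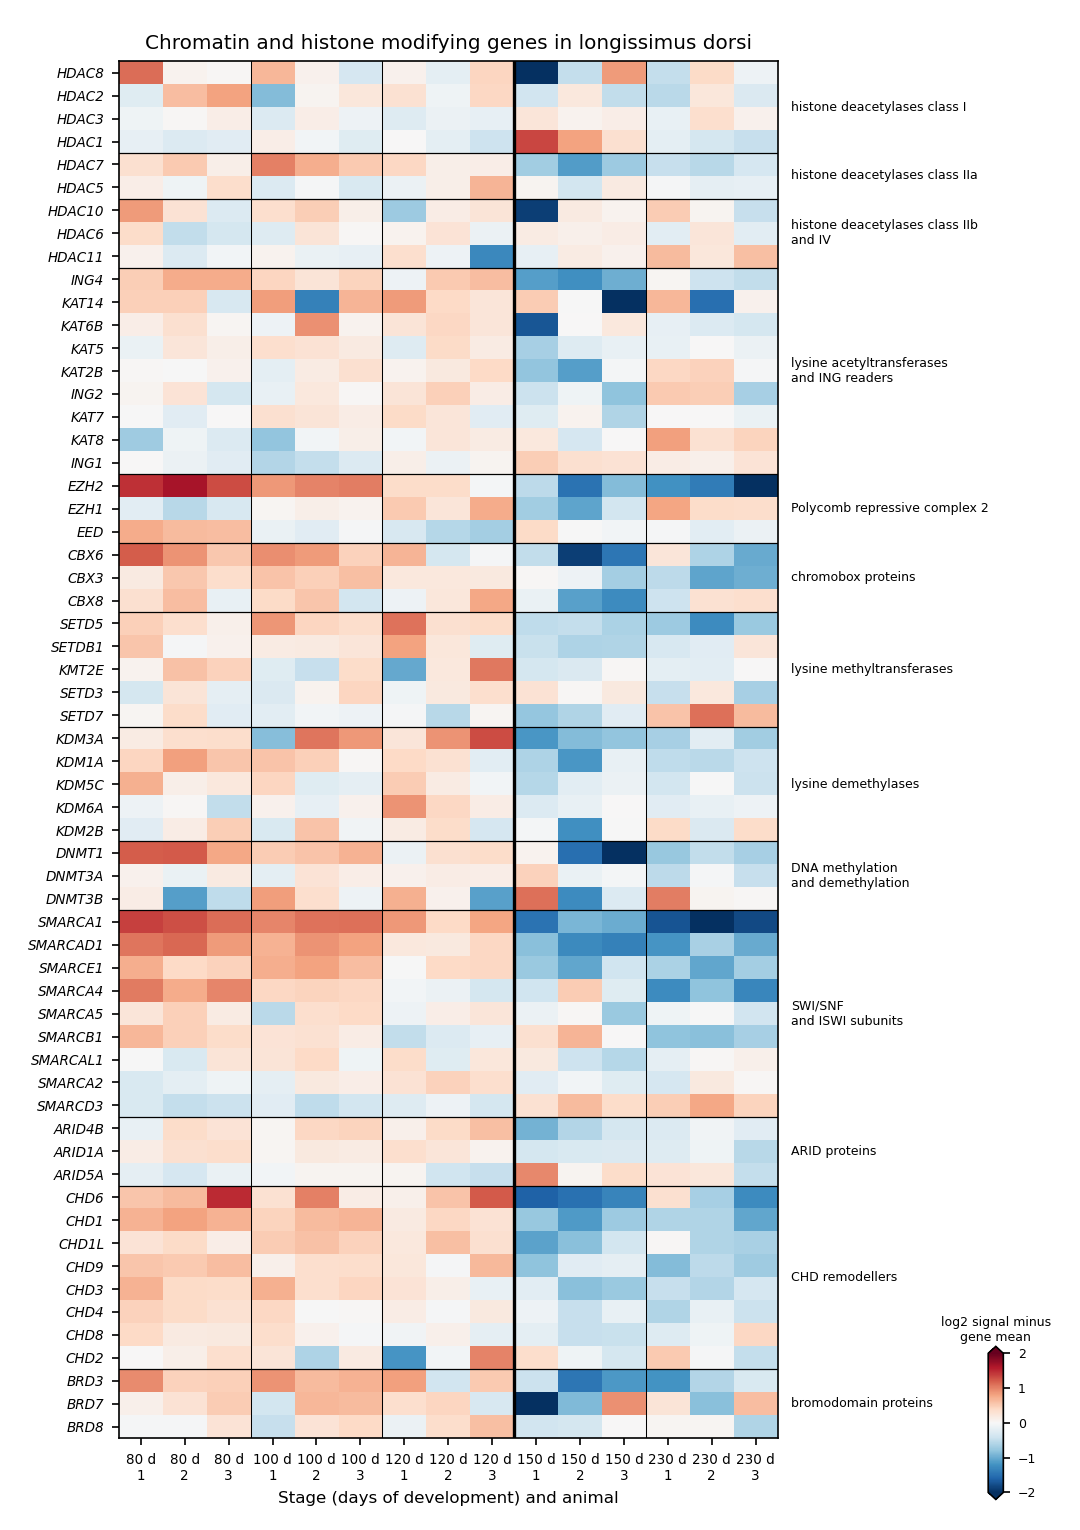
Log2 signal of the 60 tested members on each of the 15 arrays, as the difference from that gene's mean over all arrays (colour scale in log2 units), with genes in rows grouped by role and arrays in columns ordered by stage. Most rows are lower on the 150 d arrays than on the 120 d arrays, as for 48 of the 60 genes by stage means.

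From 150 to 230 d, 3 members were called, against 2.03% of all probe sets (0.944% higher, 1.08% lower). EZH1 and SETD7 rose and SMARCB1 fell. The median over members was 0.15, compared with 0.07 for all probe sets, and 41 of 60 were above zero. Below zero lay 31.7% of the members, compared with 44.8% of all probe sets. After array medians were set equal, 31 of the 60 members lay below zero, with medians of -0.03 for members and -0.11 for all probe sets. With medians set equal, or scaled to the hybridisation controls, 0 members were called higher and 2 lower. Of all probe sets, 0.463% were higher and 1.46% lower with medians set equal, and 0.206% and 1.10% when scaled to the controls. The number ranged from 0 to 5 when single arrays were left out: it was 3 without replicate 2 or 3 of 120 d, 5 without replicate 3 of 150 d, and 0 or 1 without any other array.

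Across birth as a whole, comparing the mean of the postnatal stage means with that of the fetal ones, 24 members were called (22 lower, 2 higher) against 34.5% of all probe sets (21.3% lower, 13.3% higher). The median was -0.40 for members and -0.13 for all probe sets, and 50 of 60 members lay below zero (83.3% compared with 55.8%). In 13 members every postnatal signal lay under every fetal one, and in 1 (SMARCD3) every one lay above, compared with 10.5% and 6.78% of all probe sets. Of the 11 members lower at 150 d than at 120 d, 10 were also lower in this comparison, EZH1 being the exception. Both comparisons use the 120 and 150 d arrays, so this overlap is partly built in. The matching share of all probe sets was not counted. From 120 d directly to 230 d, 9 members were called (8 lower, 1 higher) against 14.2% of all probe sets (8.41% lower, 5.79% higher). With medians set equal 7 were lower and 0 higher, against 8.38% and 4.91% of all probe sets. When scaled to the hybridisation controls 37 were lower and 0 higher, with 35.7% and 0.919% of all probe sets. Over the 5 stages the moderated F test called 25 of 60 (41.7%), compared with 25.8% of all probe sets. No comparison called 31 of the 60 members, and the matching share of all probe sets was not counted.

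**Figure D2:**
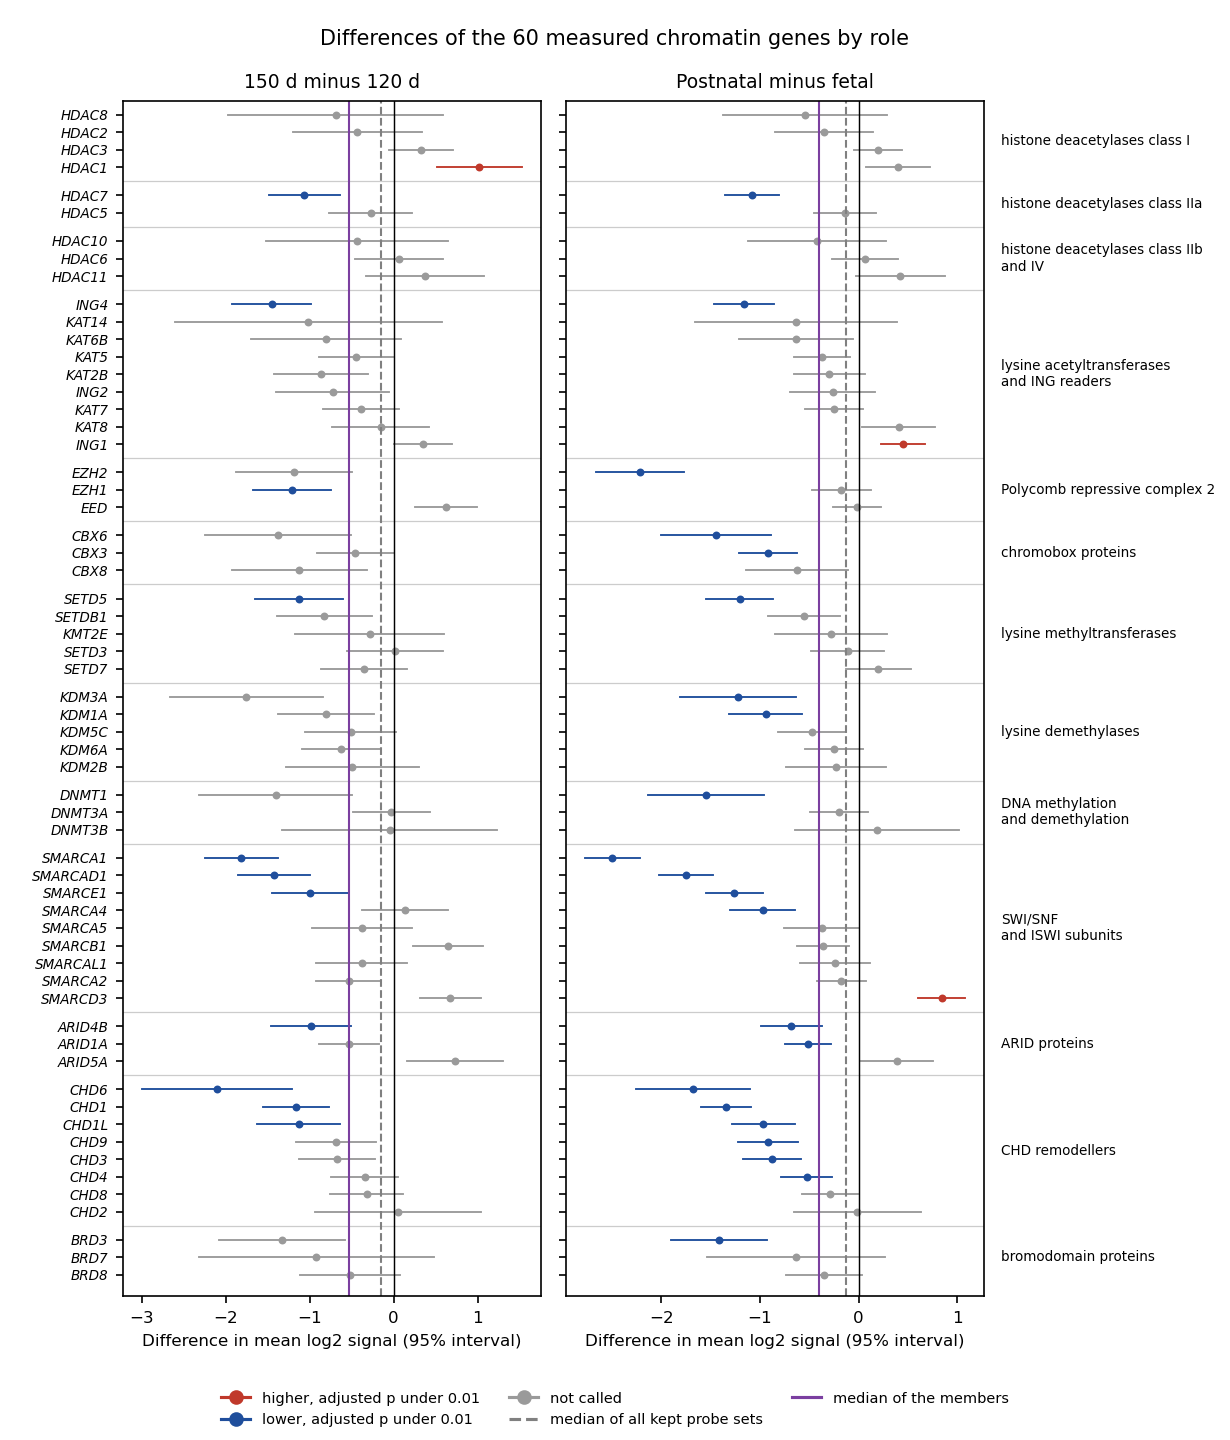
Log2 difference of each tested member, grouped by role, for 150 d minus 120 d and for postnatal minus fetal stages, with 95% confidence intervals from limma, in blue (lower) or red (higher) where the adjusted p was under 0.01 and in grey otherwise. The dashed line is the median of all 15998 probe sets (-0.15 and -0.13) and the purple line that of the members (-0.53 and -0.40).

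In the classes that follow, counts and medians are to be read against all probe sets, of which 6.77% were lower and 4.41% higher at birth (median -0.15) and 21.3% lower and 13.3% higher after it (median -0.13). Among the 9 SMARC genes, 3 were lower at 150 d than at 120 d (median -0.38 over the class), and 4 were lower and 1 higher after birth (median -0.37). SMARCA1 encodes the ISWI ATPase SNF2L. Its signals were 2597, 2444 and 2177 at 80 d, 1971, 2126 and 2159 at 100 d, 1834, 1322 and 1728 at 120 d, 359, 533 and 504 at 150 d, and 304, 239.9 and 287 at 230 d. The groups before and after birth were far apart, with the highest postnatal signal under every fetal one. It fell by 1.81 on the log2 scale between 120 and 150 d (SE 0.20, limma adjusted p = 0.00011, 3.52-fold), and was 5.64-fold lower postnatally than fetally (adjusted p = 2.3e-08), the largest fall among the members. SMARCAD1, a SNF2-family ATPase linked to heterochromatin upkeep, had signals of 377, 395 and 321 at 80 d, 289.8, 335 and 312 at 100 d, 206, 205 and 239 at 120 d, 100.5, 74.0 and 69.9 at 150 d, and 78.7, 114 and 89.2 at 230 d. The 80 and 100 d groups overlapped, as did the postnatal groups, while the 120 d group lay clear under the younger fetuses and above the lambs. The log2 difference at birth was -1.43 (SE 0.20, adjusted p = 0.00042). SMARCE1, a DNA-binding SWI/SNF subunit, had signals of 356 to 476 at 120 d and 174 to 270.1 at 150 d (log2 difference -0.997, adjusted p = 0.0050), and measured 174 to 231 at 230 d.

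SMARCD3 (BAF60c) is the SWI/SNF subunit known to pair with MyoD at muscle genes. Its signals were 1392, 1234 and 1285 at 80 d, 1479.6, 1209.9 and 1337 at 100 d, 1452, 1608 and 1348 at 120 d, 2142, 2685 and 2233 at 150 d, and 2422, 2967 and 2361 at 230 d. All 6 postnatal values lay above all 9 fetal values. The log2 difference after birth was 0.84 (SE 0.11, limma adjusted p = 4.3e-05, 1.79-fold), and from 120 to 230 d it was 0.81 (adjusted p = 0.0040), with 0.68 over the birth interval alone missing the threshold (adjusted p = 0.013). When arrays were scaled to the hybridisation controls these became 0.15 after birth and -0.09 from 120 to 230 d, neither of which was called.

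The alternative ATPases of SWI/SNF, SMARCA4 (BRG1) and SMARCA2 (BRM), followed different courses. SMARCA4 signals were 1256, 1021 and 1196 at 80 d, 811, 829 and 812 at 100 d, 584, 559 and 478 at 120 d, 461, 869 and 514 at 150 d, and 256, 350.2 and 247 at 230 d. The fetal groups did not overlap one another, and a single 150 d animal reached the 100 d level. It was lower after birth (log2 difference -0.97, limma adjusted p = 0.00020). SMARCA2 was among the 3 members with the highest mean signal; it lay at 1104 to 1283 at 80 d, 1666 to 1883 at 120 d and 1087 to 1569 at 230 d, with a postnatal minus fetal difference of -0.17 (95% interval -0.43 to 0.08). SMARCB1, a core SWI/SNF subunit, had signals of 432, 378 and 349 at 80 d, 327, 336 and 302 at 100 d, 194, 224 and 242 at 120 d, 339, 438 and 274 at 150 d, and 156, 152 and 171 at 230 d. The 150 d signals stood above both neighbouring stages. Only the later step passed the test (log2 difference from 150 to 230 d -1.11, adjusted p = 0.0057), and the rise at birth of 0.65 did not (adjusted p = 0.028).

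Of the 8 CHD remodellers, 3 were lower at 150 d and 6 lower after birth, with class medians of -0.68 and -0.90. CHD1, which reads methylated lysine 4 of histone H3, had signals of 618, 668 and 616 at 80 d, 519, 591 and 607 at 100 d, 431, 507 and 464 at 120 d, 225, 173 and 231 at 150 d, and 252, 252 and 186 at 230 d. No postnatal value reached a fetal one. The log2 difference at birth was -1.16 (SE 0.18, limma adjusted p = 0.00090) and after birth -1.34 (adjusted p = 1.7e-06). CHD1L, a remodeller recruited to DNA damage, moved from 293, 382 and 315 at 120 d to 120.1, 142 and 196 at 150 d (-1.13, adjusted p = 0.0040), and lay at 258, 168 and 161 at 230 d, still under all fetal signals, which spanned 279 to 382. CHD6 was called lower at birth (adjusted p = 0.0034), but its signals were 29.6 to 64.3 at 120 d and 9.0 to 11.1 at 150 d, both with geometric means under 50, so that no fold is given. It passed the filter on 3 arrays, all of them fetal (77.2, 55.6 and 64.3), so its falls at and after birth are not separate from the filter. CHD6 is among the counts of members called lower. When 50 had to be reached on 8 arrays, which leaves it out, 11 members were lower at birth and 21 after it.

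The paired NuRD ATPases CHD3 and CHD4 were both lower after birth. CHD3 had signals of 276 to 500 over the 9 fetal animals and 171 to 266 over the 6 postnatal ones, which did not overlap (log2 difference -0.88, limma adjusted p = 0.00017). CHD4 had 582 to 806 and 389 to 548, also apart (-0.52, adjusted p = 0.0030). The CHD4 call was lost with the mean of its 4 probe sets (-0.35, adjusted p = 0.0973), 1 of which lay at 0.11, and with quantile normalization (-0.43, adjusted p = 0.0104). The chromodomain helicase CHD9 lay at 1136 to 1803 before birth and 633 to 1024 after it (-0.92, adjusted p = 0.00016), and was also lower at 230 d than at 120 d (-0.99, adjusted p = 0.0056). CHD8 (-0.29) and CHD2 (-0.01, interval -0.65 to 0.63) were not called.

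Polycomb repressive complex 2 methylates lysine 27 of histone H3 through either EZH2, the form typical of dividing cells, or EZH1, the form typical of tissues that no longer divide. EZH2 signals were 682, 775 and 612 at 80 d, 450.5, 493 and 502 at 100 d, 318, 321 and 241 at 120 d, 172, 88.9 and 136 at 150 d, and 107, 93.6 and 44.3 at 230 d. Every stage up to 150 d lay wholly under the one before it. No single interval was called (log2 differences of -0.73 from 100 to 120 d and -1.19 at birth, limma adjusted p = 0.018 for the latter), whereas the fall after birth was 2.22 on the log2 scale (SE 0.21, adjusted p = 2.7e-06, 4.64-fold) and that from 120 to 230 d was 1.93 (adjusted p = 0.00092). Of the 9 proliferation genes that passed the filter, 8 were also lower after birth and 0 were called at birth, and the part of dividing cells in the EZH2 values was not tested.

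EZH1 signals were 381, 303 and 353 at 80 d, 454, 479 and 464 at 100 d, 639.8, 522 and 741 at 120 d, 273, 213 and 344 at 150 d, and 763, 569.9 and 562 at 230 d. The stages were thus separate up to 120 d, and the 150 d group lay under both its neighbours while 230 d overlapped 120 d. The fall at birth was 1.21 on the log2 scale (SE 0.22, limma adjusted p = 0.0019) and the later rise was 1.20 (SE 0.22, adjusted p = 0.0070). From 120 to 230 d the difference was -0.01 (95% interval -0.47 to 0.46), and over all postnatal against all fetal stages it was -0.17. When each array was left out in turn, the rise was called in 3 of 15 runs and the fall in 14 of 15, the exception being replicate 3 of 120 d.

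EED, the subunit that binds trimethylated lysine 27, cannot be read from these data with confidence. The annotation gives this symbol to 23 probe sets in 20 transcript clusters, where no other member has more than 5. Of the 19 that passed the filter, the log2 differences at birth ran from -1.89 to 1.24, 3 were called lower, and the median correlation between pairs over the 15 arrays was 0.147. The brightest had a difference at birth of 0.63 (adjusted p = 0.020) and was not called in any interval; leaving EED out changed no count of called members for the 4 intervals or the postnatal comparison, and left 24 called by the F test.

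Of the 3 chromobox genes, 2 were lower after birth and 0 were called at birth (class medians -0.92 and -1.12). CBX3, encoding the heterochromatin protein HP1γ, had fetal signals of 1259 to 1702 and postnatal signals of 538 to 1133, with no overlap (log2 difference -0.92, limma adjusted p = 0.00012). CBX6, a Polycomb reader of lysine 27 methylation, had 134 to 397 before birth and 46.5 to 202 after, which overlapped (-1.45, adjusted p = 0.00055). CBX8, of the same reader group, had a difference of -0.62 and was not called (adjusted p = 0.047).

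**Figure D3:**
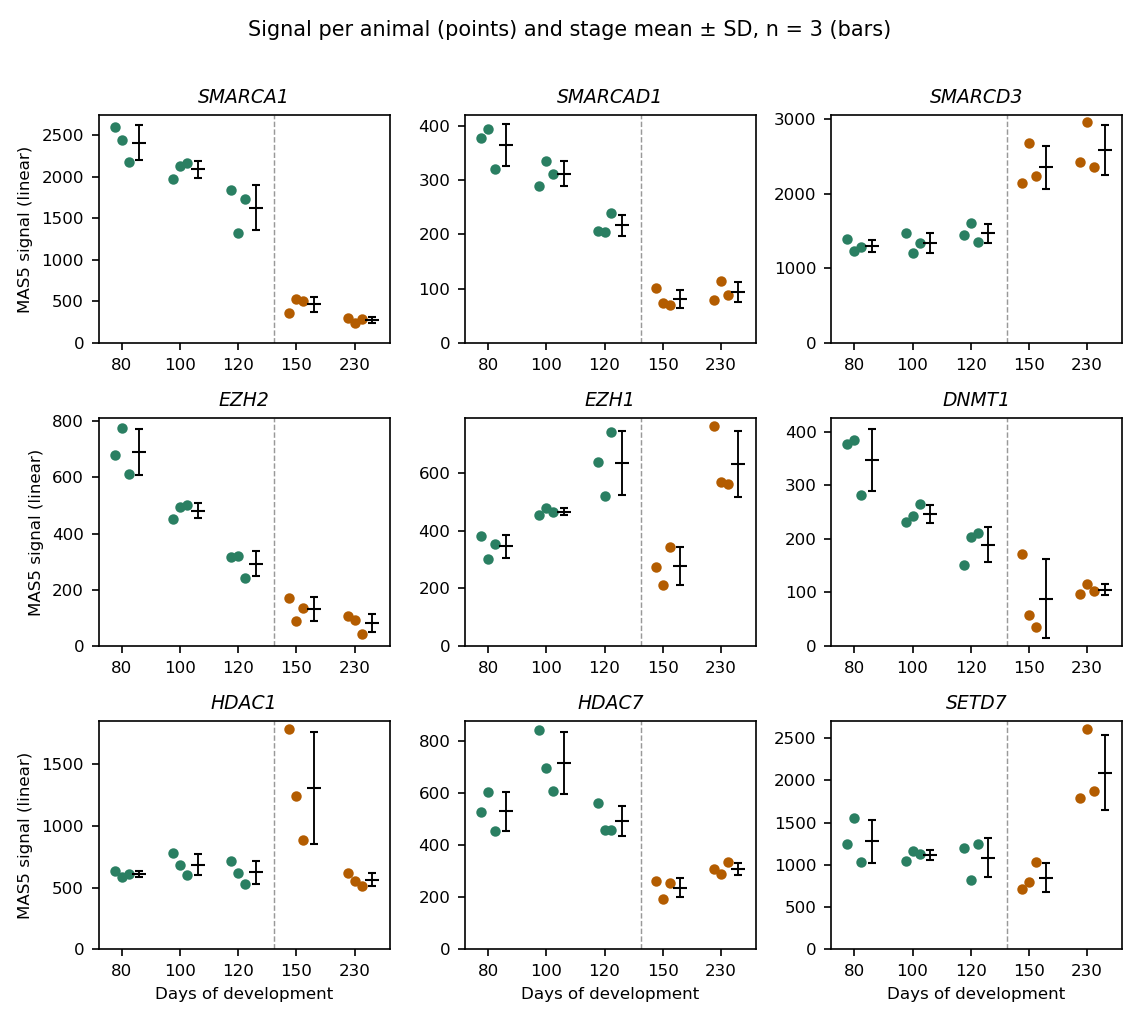
Signal of 9 members (SMARCA1, SMARCAD1, SMARCD3, EZH2, EZH1, DNMT1, HDAC1, HDAC7 and SETD7) for each animal at 80, 100, 120, 150 and 230 d, on a linear axis from 0, with the stage mean and SD (n = 3). SMARCA1 and EZH2 have postnatal values under every fetal value, SMARCD3 above every fetal value, and EZH1 has its lowest group and HDAC1 its highest at 150 d.

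Histone deacetylases remove acetyl groups and mostly repress transcription. Among the 4 class I enzymes only HDAC1 was called, and only at birth. Its signals were 635, 588 and 607 at 80 d, 776, 683 and 601 at 100 d, 717, 620.1 and 531 at 120 d, 1787, 1246 and 888 at 150 d, and 619.5, 557 and 516 at 230 d. The newborn animals stood above all others but differed widely among themselves. The log2 difference at birth was 1.02 (SE 0.23, limma adjusted p = 0.0082), and the later change of -1.16 missed the threshold (adjusted p = 0.013). The call at birth was lost on leaving out any 1 of 14 arrays and kept only without replicate 3 of 150 d, with values from 0.77 to 1.27, and it became 0.37 (adjusted p = 0.25) when scaled to the hybridisation controls. HDAC2, the close relative of HDAC1, had signals of 42.8 to 136 before birth and 53.3 to 90.7 after (postnatal difference -0.35, 95% interval -0.84 to 0.15). HDAC3, the NCoR-bound enzyme, lay at 363 to 485 and 395 to 558 (0.20, interval -0.05 to 0.44). HDAC8 ranged from 15.3 to 121 among the 150 d animals alone, and its difference of -0.54 had an interval of -1.37 to 0.28.

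Class IIa deacetylases bind MEF2 factors, and HDAC7 is also abundant in endothelium. HDAC7 signals were 528, 606 and 456 at 80 d, 844, 694 and 607 at 100 d, 561, 458 and 459 at 120 d, 261, 194 and 254 at 150 d, and 307, 287 and 333 at 230 d. All postnatal values lay under all fetal ones. It fell by 1.07 on the log2 scale at birth (SE 0.19, limma adjusted p = 0.0022), and the postnatal minus fetal difference was -1.08 (adjusted p = 1.8e-05). Of the 6 endothelial markers, 3 were also called lower at birth, and its part in the HDAC7 values was not tested. HDAC5, the other class IIa gene analysed here, lay at 119.9 to 237 before birth and 115 to 167 after it, with a postnatal difference of -0.14 (95% interval -0.46 to 0.18). Class IIb and IV enzymes were not called: HDAC6, which acts on tubulin, had a difference of 0.07 (interval -0.27 to 0.40), HDAC10 of -0.42 (-1.12 to 0.28) and HDAC11 of 0.43 (-0.03 to 0.88).

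Lysine acetyltransferases add the groups that deacetylases remove, and ING proteins carry a PHD finger that reads methylated lysine 4 of histone H3 within acetyltransferase or deacetylase complexes. Of 9 such genes tested, 1 was lower at birth, and 1 was lower and 1 higher after birth, with class medians of -0.73 and -0.29. ING4, a subunit of the KAT7 complex, had signals of 657, 781 and 779.5 at 80 d, 629, 554 and 636 at 100 d, 433, 669 and 712 at 120 d, 216, 198 and 235 at 150 d, and 479.7, 349.7 and 329 at 230 d. The 150 d group was under all others, and 1 of the 230 d animals reached the fetal range. The log2 difference at birth was -1.45 (SE 0.22, limma adjusted p = 0.00069), and that after birth -1.16 (adjusted p = 2.5e-05). The partial return from 150 to 230 d of 0.82 was not called (adjusted p = 0.043), whereas the second ING4 probe set rose by 1.10 and passed (adjusted p = 0.0051).

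ING1, of the Sin3 deacetylase complex, was the other member called higher after birth, with fetal signals of 146 to 236 and postnatal signals of 234 to 306 that overlapped at the edge (log2 difference 0.45, limma adjusted p = 0.0028). Under scaling to the hybridisation controls its sign turned (-0.24, not called). KAT2B (PCAF), which acetylates MyoD as well as histones, had the highest mean signal among the members. Its signals were 1783 to 2666 before birth, 1174, 951 and 1988 at 150 d, and 2705, 2804 and 2006 at 230 d. A pair of newborn animals had the lowest signals of all, the other newborn and the oldest lambs lay in or above the fetal range, and neither the fall at birth (-0.86, adjusted p = 0.031) nor the later difference (0.93, adjusted p = 0.051) was called. Its second probe set was called higher after birth (0.79, limma adjusted p = 0.0038), where the brightest gave -0.29 and was not called. None of KAT5, KAT6B, KAT7, KAT8 or KAT14 was called in any comparison.

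Of the 5 genes of the KMT and SETD series, 1 was lower at birth and 1 after it (class medians -0.35 and -0.28). SETD5, a SET-domain protein linked to the HDAC3 and NCoR complex, had signals of 466, 421 and 358 at 80 d, 612, 447 and 427 at 100 d, 704, 415 and 429.6 at 120 d, 234, 239.5 and 215 at 150 d, and 202, 139.6 and 198 at 230 d. Postnatal and fetal values did not overlap, nor did the 2 postnatal groups. The log2 difference was -1.13 at birth (SE 0.24, limma adjusted p = 0.0059), -1.21 after birth (adjusted p = 4.4e-05) and -1.50 from 120 to 230 d (adjusted p = 0.00085). SETD7 monomethylates lysine 4 of histone H3 and is known to associate with MyoD. It had signals of 1241, 1551 and 1037 at 80 d, 1047, 1164 and 1125 at 100 d, 1193, 818 and 1244 at 120 d, 708, 796 and 1036 at 150 d, and 1796, 2605 and 1871 at 230 d. The 3 oldest lambs stood above all 12 younger animals. The rise from 150 to 230 d was 1.30 on the log2 scale (SE 0.24, adjusted p = 0.0076) and, with 1 array left out at a time, was called in 3 of 15 runs; from 120 to 230 d it was 0.95 (adjusted p = 0.011). SETDB1, which methylates lysine 9 of histone H3, had a postnatal difference of -0.55 (adjusted p = 0.016). SETD3, an actin histidine methyltransferase, was not called (-0.11). KMT2E was not called after birth by its brightest probe set (-0.28, adjusted p = 0.40), whereas its other 2 probe sets were lower (-0.61, adjusted p = 0.0059, and -1.40, adjusted p = 0.0021).

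Of the 5 lysine demethylases, 0 were called at birth and 2 were lower after it (class medians -0.63 and -0.47). KDM3A, which demethylates lysine 9 of histone H3 and responds to hypoxia, had signals of 382, 599 and 795 at 120 d and 144, 176 and 186 at 150 d; its log2 difference of -1.76 lay just outside the threshold (limma adjusted p = 0.0103), while its second probe set, at -1.15, passed (adjusted p = 0.0017). After birth its difference was -1.22 (adjusted p = 0.0026). KDM1A (LSD1), which demethylates lysine 4, had 445 to 912 before birth and 230.5 to 464 after, overlapping at the edge, with a difference of -0.94 (adjusted p = 0.00059). KDM6A, a demethylase of the mark that EZH1 and EZH2 place, had -0.63 at birth (adjusted p = 0.051).

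DNMT1 copies DNA methylation onto newly made strands, and DNMT3A and DNMT3B set new methylation. DNMT1 signals were 378, 385 and 281 at 80 d, 232, 243 and 266 at 100 d, 151, 204 and 212 at 120 d, 172, 57.5 and 35.6 at 150 d, and 97.1, 116 and 103 at 230 d. Stages separated up to 120 d, and 1 newborn animal (172) remained within the 120 d range. It was lower after birth (log2 difference -1.54, SE 0.27, limma adjusted p = 0.00049, 2.92-fold) but not called at birth (-1.40, adjusted p = 0.031). The same animal did not decide the call after birth, which was kept in all 15 runs that left out 1 array. DNMT3A had signals of 717 to 990.3 before birth and 574 to 1133 after it, with a difference of -0.20 (95% interval -0.49 to 0.10). DNMT3B lay between 26.2 and 135 throughout, with 0.19 (interval -0.64 to 1.02).

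Among the ARID genes, whose products bind AT-rich DNA, ARID4B (a Sin3 complex subunit) fell from 687, 839 and 972 at 120 d to 336, 429 and 503 at 150 d and measured 533, 613 and 547 at 230 d. Its log2 difference at birth was -0.98 (limma adjusted p = 0.0071) and after birth -0.68 (adjusted p = 0.0016). ARID1A, the large SWI/SNF subunit, had 966 to 1199.6 before birth and 639.8 to 891 after, with no overlap (-0.52, adjusted p = 0.0016). ARID5A had a difference of 0.39 and was not called. Of the 3 bromodomain genes tested, 1 was lower after birth: BRD3, a BET protein that reads acetylated histones, had 126 to 316 before birth and 60.3 to 133 after it, which overlapped at 1 fetal animal (-1.41, adjusted p = 0.00021). BRD8 (-0.35) and BRD7 (-0.63, 95% interval -1.54 to 0.27) were not called.

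Because several members are alternative subunits, the ratios of 7 pairs of related genes were followed within arrays, where a common scale factor cancels. The pairs were chosen with the values of their members known, so the ratios are a description and no test is given. The log2 ratio of SMARCA5, the other ISWI ATPase, to SMARCA1 was higher after birth by 2.12, and that of DNMT3A to DNMT1 by 1.35. The fetal and postnatal ratios of these 2 pairs did not overlap. The ratio of EZH1 to EZH2 was higher by 2.04, and relative to 80 d it had moved by 0.95 at 100 d and 2.10 at 120 d, by 2.08 in newborn lambs and by 4.03 in the oldest. Most of this change thus lay outside the birth interval.

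The log2 ratio of HDAC5 to HDAC7 was higher after birth by 0.94 and that of CHD3 to CHD4 differed by -0.35, both with overlapping fetal and postnatal arrays. SMARCA2 to SMARCA4 (0.80) and HDAC1 to HDAC2 (0.75) overlapped as well. For SMARCA2 to SMARCA4 the shift from 80 d was 1.66 by 120 d and 2.20 at 230 d, with 0.99 at 150 d. These ratios show unequal change of paired signals, and the amount of one transcript relative to another is not given by them.

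**Figure D4:**
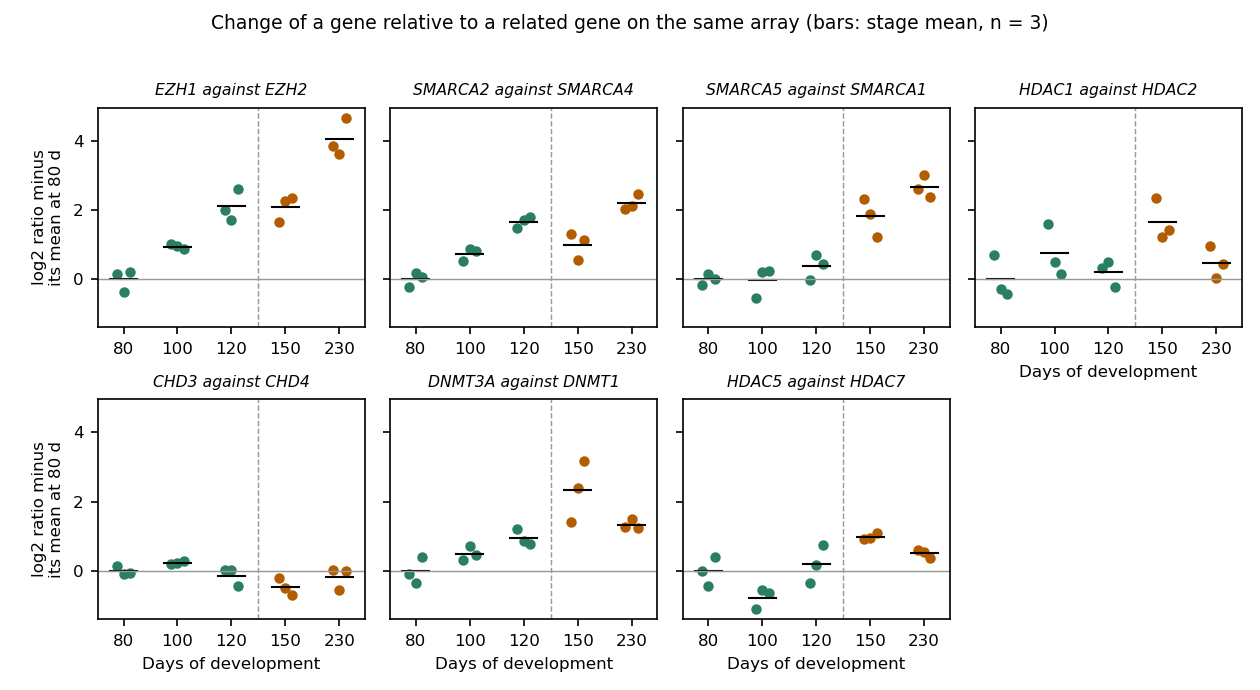
Log2 ratio of 7 pairs of related members on each array, as the difference from the mean ratio at 80 d, against stage in days. EZH1 to EZH2 reaches a mean of 2.10 by 120 d and 4.03 at 230 d, SMARCA5 to SMARCA1 separates fetal from postnatal animals, and HDAC1 to HDAC2 is highest at 150 d.

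Several probe sets passed the filter for 21 of the members, and in 8 of these they took opposite signs at birth. For CHD1 the second probe set differed by 0.22 where the brightest gave -1.16, and the mean of both (-0.47, limma adjusted p = 0.31) was not called. For SMARCA5 the values were -0.38 and 1.16. KAT2B probe sets gave -0.86, 0.09 and -0.08. Probe sets shared a direction for HDAC7 (-1.07 and -2.04), ING4 (-1.45, -1.38 and -0.41) and ING1 after birth (0.45 and 1.90).

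**Figure D5:**
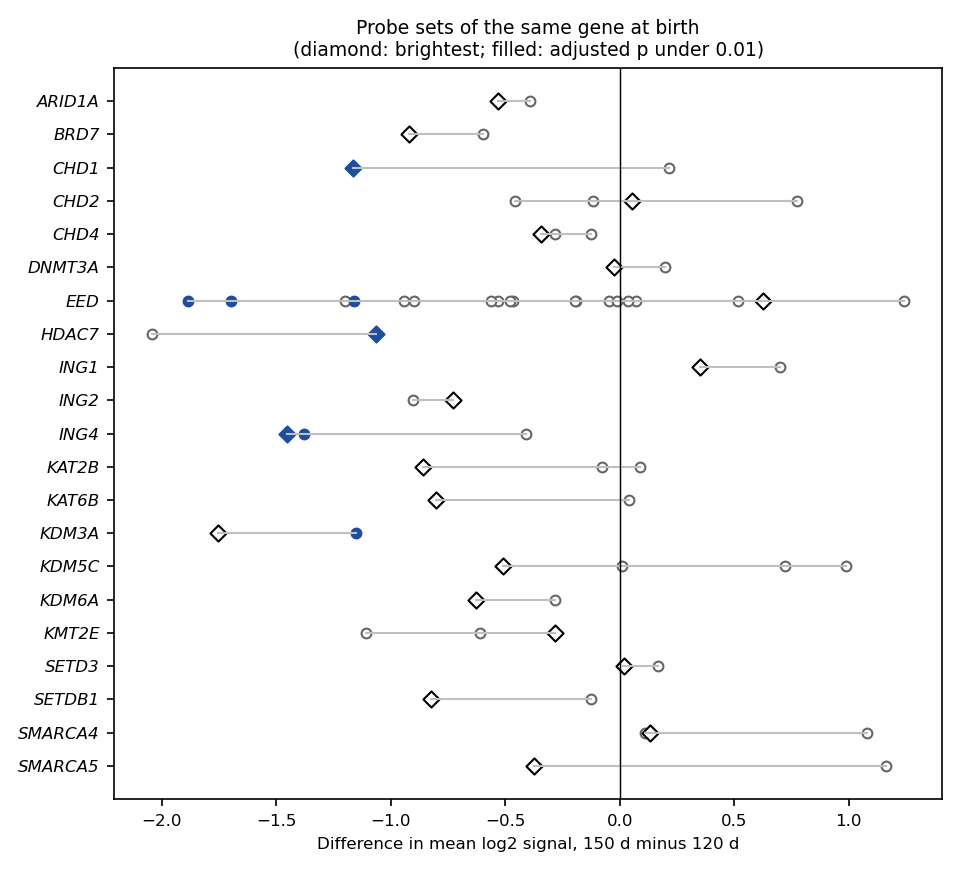
Log2 difference between 150 and 120 d for every probe set that passed the filter, in members with several, with diamonds for the brightest probe set and filled symbols for an adjusted p under 0.01. The probe sets of 8 genes fall on both sides of zero, and those of EED run from -1.89 to 1.24.

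Partner genes of the same pathways, which the naming rule leaves out, were counted in the same limma fit, and every partner named below passed its threshold. Over all probe sets, 6.77% were lower and 4.41% higher at birth (median -0.15), and 21.3% lower and 13.3% higher after it (median -0.13). Of 15 Polycomb partners tested, 2 were lower at birth and 5 after it (medians -0.19 and -0.20), and both of the former, PHF1 (-0.90 at birth) and AEBP2 (-0.81), encode accessory subunits of Polycomb repressive complex 2. Of 19 partners of the remodelling complexes, 2 were lower at birth and 7 after it (medians -0.37 and -0.46); SS18, a SWI/SNF subunit, had a postnatal log2 difference of -1.38. Of 22 histone chaperones, variants and HMG proteins, 5 were lower and 1 higher at birth, and 11 were lower after it (medians -0.34 and -0.45), among them the chromatin architectural protein HMGB2 (-1.85) and the histone chaperone subunit CHAF1A (-1.84). Of 14 deacetylase partners and sirtuins, 1 was higher at birth, and 3 were higher and 4 lower after it (medians 0.03 and -0.05), with SIRT1 at -1.25 and SIRT2 at 1.00.

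Among 9 further DNA methylation genes, 2 rose and 2 fell at birth, and 2 were higher and 4 lower after it (medians -0.30 and -0.18). The genes that rose were IDH1 (2.43 after birth) and IDH2 (2.32), the enzymes that make the 2-oxoglutarate used by demethylases and that also act in general metabolism. Of 4 acetyltransferases outside the KAT names, NCOA1 and CREBBP fell at birth and were lower after it (-1.41 and -0.58). Of 7 other methyltransferases, 1 rose and 1 fell at birth: the muscle-enriched SMYD2 (1.65) and NSD3 (-1.07). After birth 1 of these 7 was higher and 3 were lower (medians -0.73 at birth and -0.59 after it). Of 7 MLL complex partners, 0 were called at birth and MEN1 (-1.07) and CXXC1 (-0.78) were lower after it. Of 5 arginine methyltransferases, PRMT2 was lower at birth and after it.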

How the data were processed

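RNA of LD muscle was labelled with biotin and hybridised to the Affymetrix Bovine Genome Array. The authors deposited MAS5 signal intensity on a linear scale, background corrected, summarised from perfect match and mismatch probes and scaled to a mean of 200 per array. Signals under 0.1 (2 values) were set to 0.1 and log2 was taken. Of 24016 probe sets (112 controls removed), 13292 had 1 symbol, 86 several and 10638 none in the platform annotation, and 15998 with a signal of 50 or more on at least 3 arrays were kept. Stage means were fitted with limma 3.58.1 (R 4.3.3) without a block or covariate, leaving 10 residual degrees of freedom, and p-values were adjusted over all kept probe sets in each comparison. The procedure was tested on simulated data. The threshold followed the methods of the study; the contrasts of postnatal with fetal stages and of 120 with 230 d were added here. Ratios of paired genes were described without a test. Figures were drawn with matplotlib 3.10.9 (Python 3.11.15).

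Genes named with values were those called in any interval or after birth, the HDAC, DNMT, EZH and EED genes, the 3 brightest members, examples of each role with the largest postnatal differences, and at most 2 called genes from each partner list; the paired genes and the remaining members whose values missed the threshold were named after their values were seen. The members and lists were chosen with earlier results of these data known. Alternatives covered the scaling of arrays, an offset of 16, the filter, the replicate number as a block, limma's trend and robust options, the arrays in the fit, nested F tests, the mean of a gene's probe sets, a threshold of 0.05 and leaving out each array.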

Additional observations from a re-analysis of the deposited data

How the results depend on the processing

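Replicate numbers did not pair the samples: correlations of same-numbered deviations between neighbouring stages ran from -0.04 to 0.21 over 12 pairs, 3 of them over 0.1. With the replicate number as a block, members called were 0 and 0 in the fetal intervals, 1 higher and 13 lower at birth, 2 from 150 to 230 d, 2 higher and 22 lower after birth, 9 from 120 to 230 d and 24 by the F test; SETD7 (adjusted p = 0.014) and SMARCB1 (0.0101) lost the call from 150 to 230 d.

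Members called lower at birth were 11, and 7 with medians equal, 7 with quantile normalization, 33 scaled to the hybridisation controls, 7 without a filter, 24 at an adjusted p under 0.05, 0 from the 6 arrays of the interval alone and 18 by nested F. Members called higher were 1, and 2 with medians equal, 0 scaled to the controls, 0 without a filter, 2 when 50 had to be reached on 8 arrays, 3 with trend and robust options, 4 at 0.05, 0 from 6 arrays and 3 by nested F. From 150 to 230 d the 3 calls became 0 without a filter, 5 with trend and robust options, 7 at 0.05, 0 from 6 arrays and 9 by nested F. Fetal intervals gave 3 and 8 by nested F. Shares of all probe sets were not counted without a filter, with 50 on 8 arrays or with trend and robust options. Nor were they counted with the block, with an array left out, at 0.05, from 6 arrays or by nested F. The counts under these settings describe the members alone. Without scaling to the controls, 18 members were called from 120 to 230 d at an adjusted p under 0.05. Scaled to the controls, 0 members were called higher and 45 lower after birth. The F test then called 40, and 37 were called from 120 to 230 d. Of all probe sets, 49.5% were lower after birth and 35.7% lower from 120 to 230 d under that scaling. The ING1 difference after birth turned to -0.24 and that of SMARCD3 from 120 to 230 d to -0.0917 under that scaling.

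Leaving out 1 array gave 0 to 1 higher and 5 to 12 lower at birth, 0 to 5 from 150 to 230 d, 2 to 3 higher and 22 to 23 lower after birth, 19 to 24 by the F test, 5 to 10 from 120 to 230 d (5 without replicate 3 of 120 d or replicate 2 of 230 d), and 0 in each fetal interval. All 24 postnatal calls were kept in each of the 15 runs (CHD4 was lost with quantile normalization and with the mean of its probe sets), as were those at birth of CHD1, ING4, SMARCA1 and SMARCAD1; EZH1 was lost without replicate 3 of 120 d, HDAC7 without replicate 1 of 120 d or replicate 2 of 150 d, and ARID4B in 7, SETD5 in 5 and CHD1L, CHD6 and SMARCE1 in 4 runs each. Of 48 called values, 40 kept direction and call with medians equal, 42 with quantile normalization, 42 scaled to the controls, 48 with the offset and 38 without a filter; without a filter the calls at birth of ARID4B, CHD1L, HDAC1, SETD5 and SMARCE1 were lost. Genes with signals near 50, such as CHD6, HDAC10, KAT14 and DNMT3B, lie near the array's lower range and have wide intervals.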
